A study of Mus musculus with 6 samples.

Results

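Genes that mark brain endothelial cells, the mural cells around them (pericytes and smooth muscle cells) and meningeal or perivascular fibroblasts were followed in ribosome profiles of mouse thalamus. The 35 genes were chosen by name as known markers, with earlier results of these data known. They were 21 endothelial, 10 of pericytes or smooth muscle and 4 of fibroblasts. All 35 had a row among the 32531 gene rows of the tables. All libraries came from untreated adult control mice of 1 line, Slc17a6-TRAP JX883 (Slc17a6-EGFP/Rpl10a), in which EGFP is fused to the ribosomal protein Rpl10a. The line is named after Slc17a6, which encodes a vesicular glutamate transporter of thalamic relay neurons. The 3 IP libraries hold RNA of tagged polysomes captured from homogenised thalamus with antibodies to EGFP (translating ribosome affinity purification, TRAP), and the 3 Input libraries come from thalamus of the same line, so those mice carry the tag as well. The labels name the RNA of Input, too, ribosome-bound. They do not say whether a library is 1 animal or a pool, or whether replicates are separate animals, so the p-values here reflect spread among libraries only, and that spread may be technical.

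Gene reads per library ran from 52068141 to 54421395 in IP and from 44081149 to 47340321 in Input. Levels are CPM, gene reads scaled to the same TMM-adjusted library size. Slc17a6 itself had 6489, 2193 and 2200.0 CPM in IP, against 3153, 875 and 477 CPM in Input; its log2 fold change was 1.27 ± 0.68 (SE; edgeR adjusted p = 0.206, or 0.000246 with the replicate number as a block).

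Brain endothelial cells form the blood-brain barrier by sealing their contacts with tight junctions and by carrying nutrients in, and drugs and waste out, through dedicated transporters. Pericytes cover capillaries and depend on platelet-derived growth factor signalling through Pdgfrb, and arterial smooth muscle contracts with its own actin and myosin apparatus. Fibroblasts of the meninges and of larger vessels lay down collagen and small proteoglycans and make growth factors of the insulin family.

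Promoters are shown for 1 gene of each class that fell in IP, to set a tight junction, a contractile and a growth factor gene side by side. RefSeq windows on GRCm38.p6, from 250 bases before to 50 bases after each start, were found for 24 of the 35 genes, in 33 windows of 300 bases. Capitals mark matches, on either strand, to the CArG box (the motif of serum response factor), to TATAAA, to TGGGAA (the core motif of RBPJ, the Notch partner) or to GGGCGG (the GC box).
Cldn5, chr16:18776597-18776896, plus strand: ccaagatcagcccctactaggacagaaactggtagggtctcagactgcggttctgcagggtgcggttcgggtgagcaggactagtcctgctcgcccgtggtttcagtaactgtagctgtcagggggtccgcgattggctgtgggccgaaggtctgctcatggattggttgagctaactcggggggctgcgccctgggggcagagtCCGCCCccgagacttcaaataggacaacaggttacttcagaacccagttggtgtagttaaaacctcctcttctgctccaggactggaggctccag
Myl9, chr2:156775214-156775513, plus strand: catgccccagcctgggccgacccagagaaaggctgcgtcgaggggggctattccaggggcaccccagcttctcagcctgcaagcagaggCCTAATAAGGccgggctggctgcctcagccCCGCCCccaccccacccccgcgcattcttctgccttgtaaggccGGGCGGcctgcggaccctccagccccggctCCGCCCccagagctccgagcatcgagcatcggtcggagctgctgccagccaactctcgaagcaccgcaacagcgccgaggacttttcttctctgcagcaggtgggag
Igf2, chr7:142661222-142661521, minus strand, 1 of 4 windows of the gene: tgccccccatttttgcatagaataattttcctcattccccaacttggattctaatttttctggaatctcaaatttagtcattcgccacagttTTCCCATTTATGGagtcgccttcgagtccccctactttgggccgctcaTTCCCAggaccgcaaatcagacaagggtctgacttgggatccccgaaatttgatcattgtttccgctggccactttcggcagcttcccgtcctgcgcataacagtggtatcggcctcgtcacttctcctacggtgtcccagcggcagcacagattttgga
A CArG box was found in 2 of the 33 windows, those of Myl9 and Igf2 printed here, and in 1.63% of 32817 windows of all genes. In the Igf2 window it overlaps a TGGGAA match. GGGCGG was in 15 of the 33 windows and 35.6% of all, TGGGAA in 8 and 25.6%, and TATAAA in 8 and 13.6%. A match describes letters and is not a bound site.

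Most of the vascular and meningeal genes stood below Input in IP. Of the 35, 21 fell, 0 rose and 14 were not called (adjusted p under 0.05 in the quasi-likelihood test of edgeR), while 15.6% of the 16496 genes tested were lower in IP and 9.60% higher. All 35 passed the filter on low counts. Members with few or no IP reads, such as Tie1, Vwf, Cldn5 and Higd1b, passed it through Input alone. Such genes could come out only lower or not called. At an unadjusted edgeR p under 0.05, 26 were lower and 1 higher, and DESeq2 and limma-voom also called 0 higher. With the replicate number as a block, 20 fell and 1, Bsg, rose, beside 19.2% lower and 15.9% higher over all genes. The median log2 fold change of the 35 was -3.44, also with genes without an IP read set to 3 reads over the group, and that of all tested genes was -0.04. In 28 of the 35 every IP library was below every Input library, as in 25.0% of all genes tested, and in 1, Bsg, every IP library was above, as in 19.9%.

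**Figure D1:**
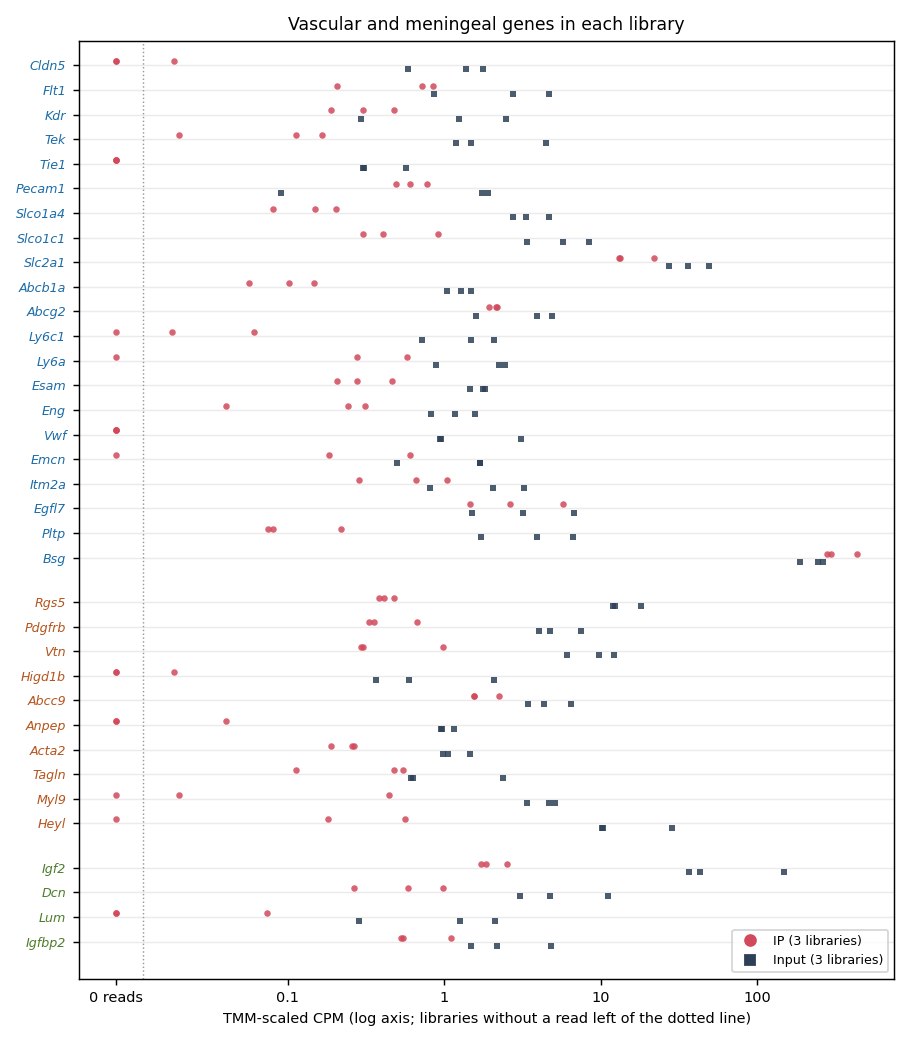
TMM-scaled CPM of each of the 35 genes in the 3 IP libraries (red circles) and the 3 Input libraries (dark squares), on a log axis, with libraries that had no read left of the dotted line. Red circles stand left of the squares for 28 genes and right of them for Bsg, and Tie1 and Vwf have no read in any IP library.

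Many of these genes were scarce in Input as well. Whether Input RNA is total or ribosome-bound was not settled here. In RNA of a tissue, fewer cells of a type and less RNA per cell cannot be told apart. Input reads summed over the 3 libraries ran from 54 for Tie1 to 32016 for Bsg, 13 genes had fewer than 200, and 26 averaged under 5 CPM. Per kilobase of annotated exon, Bsg stood highest in Input at 128 CPM per kb, followed by Igf2 at 13.3, Slc2a1 at 10.7 and Vtn at 4.59 CPM per kb, and Tie1 was lowest at 0.0799 CPM per kb. Defining markers of each class were present in every Input library, Cldn5 with 27 to 86 reads, Rgs5 with 550 to 801 and Dcn with 148 to 490.

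The summed level of endothelial genes depended on Bsg. All 21 together held 469, 301 and 317 CPM in IP replicates 1, 2 and 3, against 359.9, 266 and 309.6 CPM in Input, so 115% (114 to 117%) of Input was kept, with the 95% exact counting interval in parentheses. Of the 56329 IP reads behind that sum, 52331 were from Bsg. Without Bsg the IP libraries held 33.3, 20.7 and 23.0 CPM, against 98.5, 78.3 and 64.0 CPM in Input, and 31.7% (30.5 to 32.8%) was kept. Without Slc2a1 as well, a choice made after seeing the reads, 22.6% (21.3 to 23.9%) was kept. Intervals cover counting error only, as reads without molecular identifiers are not independent molecules.

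The 10 pericyte and smooth muscle genes summed to 3.97, 4.19 and 4.51 CPM in IP, against 50.3, 45.3 and 80.7 CPM in Input, and 7.28% (6.71 to 7.88%) was kept. The 4 fibroblast genes summed to 2.66, 3.24 and 4.29 CPM in IP, against 47.6, 47.6 and 164 CPM in Input, and 4.05% (3.70 to 4.41%) was kept. In both classes IP and Input sums did not overlap. Igf2 gave 10321 of the 11732 Input reads of the fibroblast genes, and without it 13.6% (11.7 to 15.7%) was kept. Between same-numbered libraries the percent kept was 7.91, 9.26 and 5.58% for pericyte and smooth muscle genes, 5.58, 6.79 and 2.62% for fibroblast genes and 33.8, 26.5 and 36.0% for endothelial genes without Bsg. For all 21 endothelial genes it was 130.2, 113 and 102%, higher in IP in 3 of 3 pairs. An exact two-sided permutation test of the first 3 sums gave p = 0.1 each, the smallest that 3 against 3 libraries allow, and p = 0.6 for the endothelial sum with Bsg. Permuted within same-numbered pairs, a test added after seeing the data, each of the 4 sums gave an exact two-sided p = 0.25, the smallest that 3 pairs allow. Differences between classes were not tested.

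**Figure D2:**
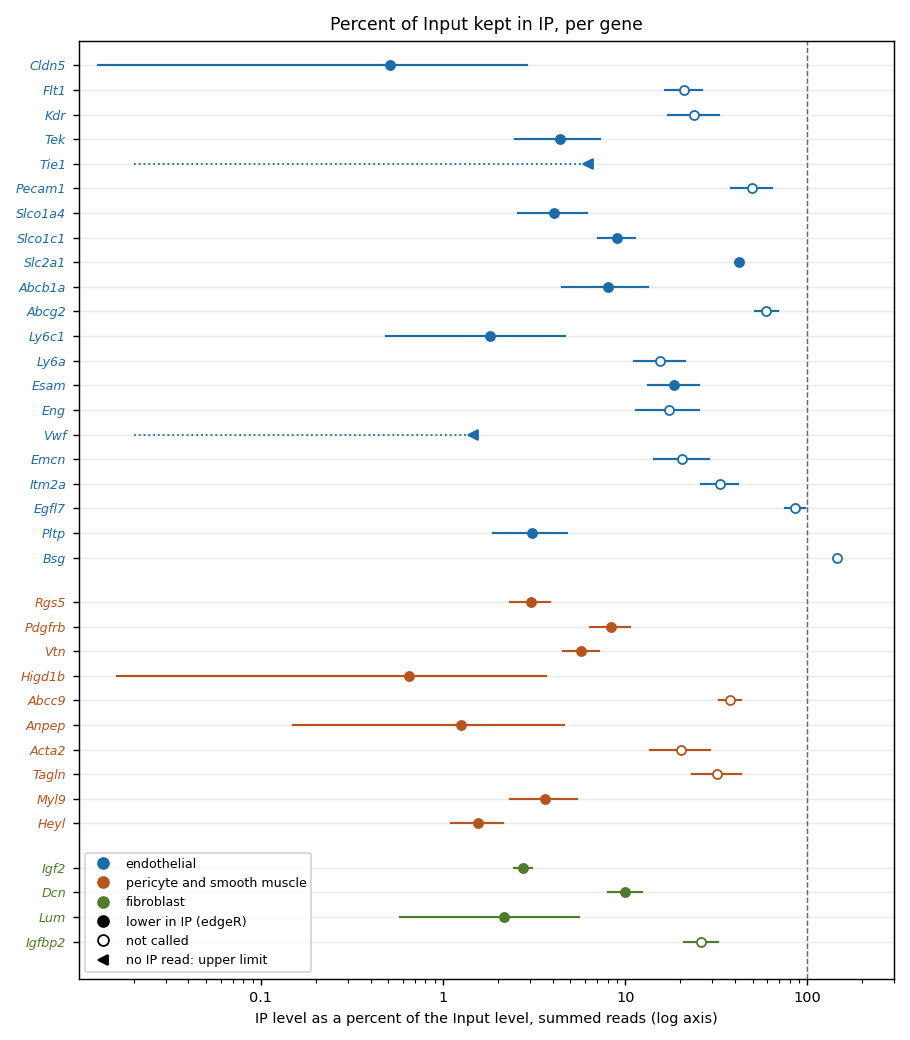
IP level as a percent of the Input level for each gene, from reads summed over 3 IP and 3 Input libraries at TMM-scaled size, on a log axis with 95% exact counting intervals as lines. Filled points are genes called lower in IP, open points were not called, arrowheads give the upper limit for genes without an IP read, and the dashed line marks equal levels: Cldn5 and Higd1b lie under 1% and Bsg lies at 145%.

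Members are grouped by role below, and these groups were drawn up after values were seen. Counts by role are to be read beside the 15.6% of all genes tested that were lower. Of 5 endothelial genes of cell contacts and adhesion, 3 fell, and Cldn5 and Vwf were nearly absent from IP. Cldn5, the main claudin of barrier tight junctions, had 0, 1 and 0 reads in IP, against 27, 86 and 61 reads in Input. It kept 0.509% of Input with a counting interval of 0.0128 to 2.87% and fell (edgeR adjusted p = 0.00596). Vwf, the clotting and adhesion protein stored by endothelial cells, had 0, 0 and 0 reads in IP, against 44, 46 and 136 reads in Input. With IP set to 3 reads over the group, a chosen floor, Vwf was 85.1-fold lower in IP, and it fell (edgeR adjusted p = 0.00632). Its counting interval reached up to 1.46% of Input. Input replicate 3 held most of the Vwf reads. At 3 reads Vwf was 49.6-fold lower without it, 56.2-fold without IP replicate 2 and 55.6-fold without IP replicate 3. Without IP replicate 3 Cldn5 kept 0.779%, and without IP replicate 2 it had no IP read. For both genes every IP library lay below every Input library.

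Esam, an adhesion molecule of endothelial contacts, had 0.466, 0.207 and 0.276 CPM in IP, against 1.78, 1.45 and 1.82 CPM in Input. It fell in the fit on group alone (log2 fold change -2.40 ± 0.72, SE; edgeR adjusted p = 0.0392) but not with the replicate block (edgeR adjusted p = 0.0648). The Esam call ended in each of the 6 fits without 1 library (edgeR adjusted p = 0.0557 to 0.120). Emcn, the sialomucin endomucin of veins and capillaries, had 0, 0.602 and 0.184 CPM in IP, against 0.5001, 1.70 and 1.70 CPM in Input, and its groups overlapped. It did not pass (-2.30 ± 1.29 on the log2 scale, edgeR adjusted p = 0.227). Pecam1, the adhesion molecule CD31, had 0.608, 0.489 and 0.772 CPM in IP, against 1.89, 1.74 and 0.0908 CPM in Input. Input replicate 3 held only 4 Pecam1 reads and lay below every IP library, and the difference of -0.99 ± 1.01 on the log2 scale did not pass (edgeR adjusted p = 0.515).

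Of 5 receptors of vessel growth and stability, Tek and Tie1 fell. Tek (Tie2), the angiopoietin receptor, had 0.0203, 0.113 and 0.166 CPM in IP, against 1.48, 1.19 and 4.47 CPM in Input, and fell by 4.53 ± 1.001 on the log2 scale (SE; edgeR adjusted p = 0.0125). Tie1, its partner receptor, had 0, 0 and 0 reads in IP, against 14, 15 and 25 reads in Input (edgeR adjusted p = 0.0165). At 3 reads over the group it was 20.3-fold lower in IP, and its counting interval reached up to 6.26% of Input. Neither receptor overlapped between groups. The Tie1 call ended without IP replicate 2, IP replicate 3 or Input replicate 2 (edgeR adjusted p = 0.0584, 0.0555 and 0.0523). At 3 reads Tie1 was 13.4-fold lower without IP replicate 2 and 13.3-fold lower without IP replicate 3.

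Flt1 and Kdr, receptors of vascular endothelial growth factor, did not pass. Flt1 had 0.852, 0.207 and 0.717 CPM in IP, against 4.68, 2.76 and 0.863 CPM in Input (-2.22 ± 0.84 on the log2 scale, edgeR adjusted p = 0.0860). Kdr had 0.304, 0.188 and 0.478 CPM in IP, against 2.50, 1.25 and 0.295 CPM in Input (-2.05 ± 0.95 on the log2 scale, edgeR adjusted p = 0.146). Input replicate 3 was the lowest Input library for both, and for Kdr it lay within the IP range. Without it both passed, Flt1 at -2.64 (edgeR adjusted p = 0.0315) and Kdr at -2.51 (edgeR adjusted p = 0.0476). Eng, endoglin, a co-receptor of the transforming growth factor beta family, had 0.0406, 0.245 and 0.313 CPM in IP, against 1.57, 0.819 and 1.18 CPM in Input. Its groups did not overlap, but it did not pass (-2.56 ± 0.94 on the log2 scale, edgeR adjusted p = 0.0802). Eng overlaps Fpgs on the opposite strand, and reads of such pairs cannot be told apart without the strand.

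Of 5 barrier transporters, 4 fell. Slco1a4, an organic anion transporter of the barrier, had 0.0811, 0.1505 and 0.202 CPM in IP, against 4.65, 3.34 and 2.77 CPM in Input, and kept 4.08% of Input with a counting interval of 2.56 to 6.19% (-4.60 ± 0.69 on the log2 scale, edgeR adjusted p = 0.00274). Slco1c1, which carries thyroid hormone into brain, had 0.913, 0.301 and 0.405 CPM in IP, against 8.44, 5.77 and 3.36 CPM in Input, and fell by 3.44 ± 0.64 on the log2 scale (edgeR adjusted p = 0.00665). Abcb1a, the drug efflux pump P-glycoprotein, had 5, 3 and 8 reads in IP, against 68, 63 and 46 reads in Input, and fell by 3.61 ± 0.85 on the log2 scale (edgeR adjusted p = 0.0162). For all 3 the highest IP library was under the lowest Input library. The Abcb1a call ended without IP replicate 1 or 2 or Input replicate 1 or 2 (edgeR adjusted p = 0.0502, 0.0643, 0.0606 and 0.0602). Abcb1a has a close paralog, Abcb1b, and reads with several placements went to no gene, so its level is uncertain.

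Slc2a1, the glucose transporter GLUT1 of endothelium, also known from astrocytes, had 21.8, 13.2 and 13.0 CPM in IP, against 49.4, 36.0 and 27.5 CPM in Input. It fell by 1.23 ± 0.31 on the log2 scale (edgeR adjusted p = 0.0197) and kept 42.0% of Input with a counting interval of 39.99 to 44.03%, with 2485 IP and 5243 Input reads behind the value. Its groups did not overlap. The Slc2a1 call ended without IP replicate 2 or 3 or Input replicate 1 or 2 (edgeR adjusted p = 0.0768, 0.0718, 0.0564 and 0.0523). Abcg2, another drug efflux pump, had 1.95, 2.18 and 2.15 CPM in IP, against 3.94, 4.87 and 1.59 CPM in Input. The IP values of Abcg2 lay within the range of Input, 59.6% was kept, and it did not pass (-0.73 ± 0.54 on the log2 scale, edgeR adjusted p = 0.369).

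Of 6 other surface and secreted endothelial genes, Pltp and Ly6c1 fell. Pltp, a phospholipid transfer protein, had 4, 4 and 12 reads in IP, against 307, 191 and 76 reads in Input (-5.00 ± 0.83 on the log2 scale, edgeR adjusted p = 0.00423). Ly6c1, a surface antigen of mouse endothelium and some leukocytes, had 3, 0 and 1 reads in IP, against 33, 73 and 91 reads in Input (-5.65 ± 1.21 on the log2 scale, edgeR adjusted p = 0.0111). Neither gene overlapped between groups. Ly6a, also called Sca-1, had 0, 31 and 15 reads in IP, against 103, 120 and 39 reads in Input, and did not pass (-2.69 ± 1.22 on the log2 scale, edgeR adjusted p = 0.140). The Ly6 genes are a family of close copies, so their counts are uncertain. Pltp overlaps Ctsa on the opposite strand, which averaged 22.7 CPM in IP and 29.1 CPM in Input and had no call (edgeR adjusted p = 0.447).

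Itm2a, a membrane protein of barrier endothelium, had 0.284, 0.658 and 1.05 CPM in IP, against 3.24, 2.05 and 0.817 CPM in Input, with overlap, and did not pass (-1.61 ± 0.79 on the log2 scale, edgeR adjusted p = 0.170). Egfl7, a secreted protein of endothelium whose gene hosts the miR-126 hairpin, had 5.76, 1.47 and 2.63 CPM in IP, against 1.5004, 3.19 and 6.79 CPM in Input. Its libraries were mixed between the groups, and it did not pass (-0.22 ± 0.69 on the log2 scale, edgeR adjusted p = 0.848). The sign of Egfl7 turned to 0.13 without IP replicate 2 and 0.50 without Input replicate 3. It overlaps Agpat2 on the opposite strand.

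Bsg was the member that stood higher in IP. Basigin, the chaperone of lactate transporters, found on barrier endothelium and also on neurons and other cells, had 435, 279.8 and 294 CPM in IP, against 261, 188 and 246 CPM in Input. IP averaged 336 ± 86.0 CPM and Input 232 ± 38.7 CPM (SD, n = 3 each), and the groups did not overlap. The difference of 0.54 ± 0.23 on the log2 scale did not pass on group alone (edgeR adjusted p = 0.117) and passed with the replicate block at 0.52 (edgeR adjusted p = 0.0167). Bsg stood in IP at 145% of Input with a counting interval of 143 to 147%.

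Of 6 pericyte genes, 5 fell. Rgs5, a G protein regulator that marks pericytes, had 0.385, 0.414 and 0.478 CPM in IP, against 11.96, 12.4 and 18.2 CPM in Input. It fell by 5.05 ± 0.40 on the log2 scale (SE; edgeR adjusted p = 0.000144) and kept 3.03% of Input with a counting interval of 2.34 to 3.87%. The Rgs5 call held in each fit without 1 library (edgeR adjusted p up to 0.00159). Pdgfrb, the growth factor receptor that recruits pericytes, had 0.669, 0.357 and 0.331 CPM in IP, against 4.74, 4.03 and 7.45 CPM in Input, and fell by 3.57 ± 0.57 on the log2 scale (edgeR adjusted p = 0.00367). Both had every IP library far below the lowest Input library.

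Vtn, vitronectin, a matrix protein made by brain pericytes, had 0.304, 0.978 and 0.294 CPM in IP, against 9.70, 6.06 and 12.2 CPM in Input (-4.14 ± 0.63 on the log2 scale, edgeR adjusted p = 0.00295). Higd1b, a hypoxia-inducible domain family member that marks pericytes, had 0, 1 and 0 reads in IP, against 17, 29 and 91 reads in Input, and kept 0.646% of Input with a counting interval of 0.0162 to 3.66% (edgeR adjusted p = 0.0104). Anpep, the peptidase CD13, had 2, 0 and 0 reads in IP, against 53, 47 and 42 reads in Input, and kept 1.25% of Input with a counting interval of 0.1496 to 4.59% (edgeR adjusted p = 0.0113). All 3 fell in each fit without 1 library as well. The percent kept of Higd1b was 1.31% without Input replicate 3, 0.989% without IP replicate 3, and without IP replicate 2 it had no IP read. That of Anpep was 1.89% without IP replicate 2 and 1.91% without IP replicate 3, and without IP replicate 1 it had no IP read. Abcc9, the regulatory subunit of the vascular ATP-sensitive potassium channel, had 1.56, 1.56 and 2.23 CPM in IP, against 6.50, 4.34 and 3.45 CPM in Input, and kept 37.5%. Its groups did not overlap, but it did not pass (-1.42 ± 0.47 on the log2 scale, edgeR adjusted p = 0.0588). Without Input replicate 3 it passed at -1.59 (edgeR adjusted p = 0.0339).

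Of 4 smooth muscle genes, Heyl and Myl9 fell. Heyl, a transcriptional repressor downstream of Notch in mural cells, had 0.183, 0.564 and 0 CPM in IP, against 10.4, 10.2 and 28.3 CPM in Input. It fell by 6.02 ± 1.05 on the log2 scale (SE; edgeR adjusted p = 0.00515) and kept 1.55% of Input with a counting interval of 1.10 to 2.13%. The percent was 0.542% without IP replicate 2, 2.38% without IP replicate 3 and 2.41% without Input replicate 3. Myl9, the regulatory light chain of smooth muscle myosin, whose promoter is printed above, had 1, 0 and 24 reads in IP, against 155, 248 and 206 reads in Input. Nearly all its IP reads were in IP replicate 3, and the groups did not overlap. Its log2 fold change was -4.79 ± 1.27 (edgeR adjusted p = 0.0253), and the call ended without IP replicate 1 or Input replicate 2 (edgeR adjusted p = 0.0592 and 0.0706).

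Acta2, the smooth muscle actin, had 0.264, 0.188 and 0.257 CPM in IP, against 1.46, 1.06 and 0.976 CPM in Input, and did not pass (-2.29 ± 0.77 on the log2 scale, edgeR adjusted p = 0.0582). Tagln, the actin-binding protein SM22, had 0.548, 0.113 and 0.478 CPM in IP, against 0.631, 0.614 and 2.38 CPM in Input, and did not pass (-1.67 ± 0.95 on the log2 scale, edgeR adjusted p = 0.235). For both the highest IP library was below the lowest Input library, for Tagln by a small margin. Tagln overlaps Pcsk7 on the opposite strand, which averaged 5.76 CPM in IP and 9.10 CPM in Input.

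Of the 4 fibroblast genes, 3 fell. Igf2, the growth factor IGF-II of meninges, vessels and choroid plexus, had 1.85, 1.73 and 2.52 CPM in IP, against 36.8, 42.8 and 148 CPM in Input. It fell by 5.22 ± 0.59 on the log2 scale (SE; edgeR adjusted p = 0.000799) and kept 2.75% of Input with a counting interval of 2.45 to 3.07%. Input replicate 3 was far above the other Input libraries, and without it Igf2 kept 5.11%. Dcn, the proteoglycan decorin, had 0.264, 0.978 and 0.589 CPM in IP, against 4.76, 3.03 and 11.1 CPM in Input (-3.36 ± 0.71 on the log2 scale, edgeR adjusted p = 0.0107). Lum, the related proteoglycan lumican, had 0, 0 and 4 reads in IP, against 58, 14 and 93 reads in Input (-5.47 ± 1.49 on the log2 scale, edgeR adjusted p = 0.0277). Every IP library of these 3 genes lay below every Input library. The Lum call ended without IP replicate 1 or 2 or Input replicate 1 or 3 (edgeR adjusted p = 0.0736, 0.0835, 0.0597 and 0.0554). Igfbp2, which binds insulin-like growth factors and is also made by astrocytes and choroid plexus, had 0.548, 0.527 and 1.10 CPM in IP, against 4.81, 1.47 and 2.18 CPM in Input. Its groups did not overlap, 26.2% was kept, or 40.5% without Input replicate 1, and it did not pass (-1.95 ± 0.70 on the log2 scale, edgeR adjusted p = 0.0729).

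The Input libraries differed among themselves in which vascular genes they held. In Input replicate 3, 16 of the 35 genes were at their highest Input level, 14 at their lowest and 5 between. Highest there were 7 of the 21 endothelial and 6 of the 10 pericyte and smooth muscle genes, and 11 and 3 were lowest. The same shares over all genes were not counted. All 5 barrier transporters were lowest there, from 0.361 times the mean of Input replicates 1 and 2 for Abcg2 to 0.755 times for Abcb1a. Pecam1 stood at 0.05002, Kdr at 0.157, Flt1 at 0.232, Itm2a at 0.309 and Pltp at 0.326 times that mean. In the other direction Higd1b stood at 4.29, Tagln at 3.83, Igf2 at 3.73, Tek at 3.36 and Vwf at 3.25 times. Egfl7 stood at 2.89, Dcn at 2.86, Heyl at 2.75 and Lum at 2.73 times, and the fibroblast gene Igfbp2 at 0.694 times. These ratios describe 1 library and were not tested, and the genes named were chosen after their values were seen.

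**Figure D3:**
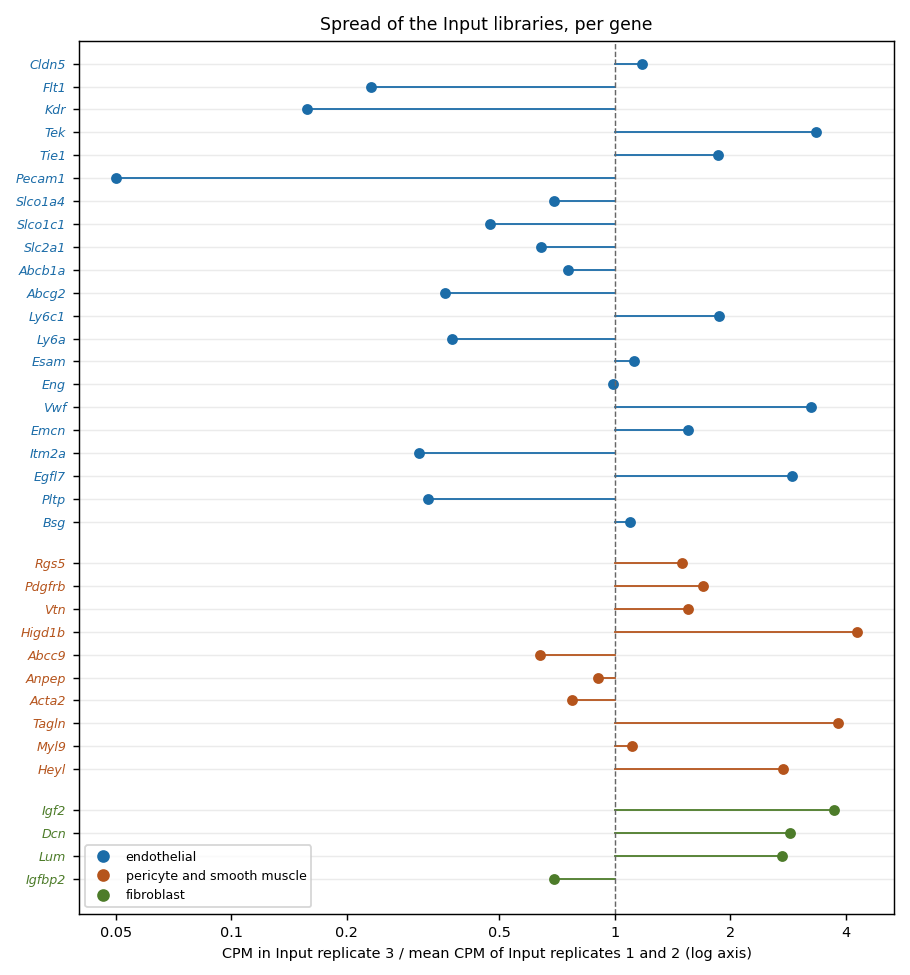
TMM-scaled CPM in Input replicate 3 divided by the mean of Input replicates 1 and 2, on a log axis, for each gene, coloured by class. Barrier transporters lie left of the dashed line at 1, down to 0.361 for Abcg2, and Igf2, Dcn and Lum lie right of it, between 2.73 and 3.73.

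Several choroid plexus markers were far higher in the same library. The summed level of 10 choroid plexus and ependymal markers was 4.77, 6.13 and 47.7 CPM in IP replicates 1, 2 and 3, against 49.8, 48.9 and 1225 CPM in Input. Ttr, transthyretin of choroid plexus, gave most of this, with 60, 34 and 1936 reads in IP, against 666, 325 and 49777 reads in Input. Of the 10, 7 were highest in Input replicate 3, 1 was between and 2 were lowest, Tmem212 at 0.0839 and Rarres2 at 0.137 times the mean of the other two. The part of choroid plexus in the Input levels of Igf2 and Igfbp2 was not tested. Without Input replicate 3, the fibroblast genes kept 7.18% of Input in place of 4.05%, and Igf2 stayed lower in IP in each fit without 1 library (edgeR adjusted p up to 0.00644).

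Marker lists of other cells, also chosen with earlier results known, were set beside the vascular classes. The median gene kept 17.3% of Input among the 21 endothelial genes, 4.69% among the 10 pericyte and smooth muscle genes and 6.38% among the 4 fibroblast genes. The median was 8.07% for 10 astrocyte genes, 4.51% for 10 oligodendrocyte genes, 5.43% for 10 microglial genes, 8.59% for 10 choroid plexus and ependymal genes, 6.66% for 3 erythrocyte genes and 139% for 12 neuronal genes. Called lower were 9 of 10 astrocyte, 10 of 10 oligodendrocyte and 9 of 10 microglial genes, 3 of 7 tested choroid plexus and ependymal genes (6 with the replicate block) and 3 of 3 erythrocyte genes. Of the 12 neuronal genes 3 rose (7 with the replicate block) and 2, Map2 and Gad1, fell. Over all genes tested 15.6% were lower and 9.60% higher, or 19.2% and 15.9% with the replicate block. The 2 of 12 neuronal genes that fell were near the share of all genes. Differences between these lists were not tested.

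**Figure D4:**
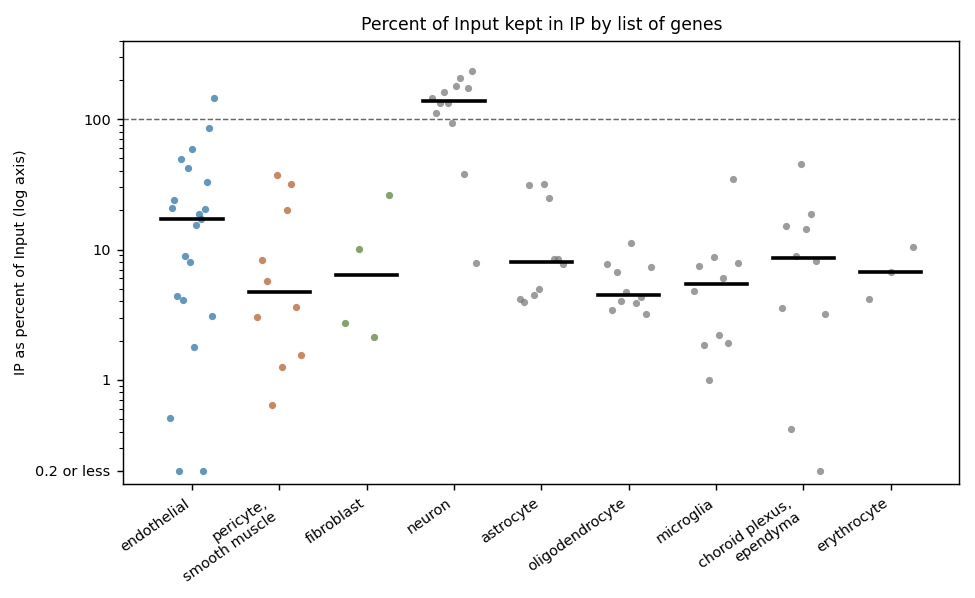
IP level as a percent of Input for each gene (points) of the 3 vascular and meningeal classes and of marker lists of other cell types, on a log axis, with the median of each list as a black bar and genes under 0.2% drawn at the bottom. Endothelial genes range from no IP read to 145%, and the neuronal list has its median at 139%.

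Further known genes of the same cells, also chosen with earlier results known, were counted, 70 in all, of which 58 could be tested. Of these 22 fell, 0 rose and 36 did not pass (edgeR adjusted p under 0.05), beside 15.6% lower and 9.60% higher over all genes. Their median was -2.18 on the log2 scale, and 30 were lower at an unadjusted p under 0.05. Of 27 tested endothelial genes 10 fell. Ptprb, an endothelial phosphatase that restrains Tie2, had 3.97, 1.94 and 2.76 CPM in IP, against 12.4, 9.07 and 10.01 CPM in Input (-1.86 ± 0.39 on the log2 scale, edgeR adjusted p = 0.0105). Mfsd2a, the lipid transporter that limits transcytosis, had 0.831, 0.527 and 0.607 CPM in IP, against 10.4, 7.82 and 7.49 CPM in Input (-3.71 ± 0.44 on the log2 scale, edgeR adjusted p = 0.00100). Rgcc, a cell cycle regulator, had 1.05, 2.09 and 1.56 CPM in IP, against 6.37, 6.14 and 6.29 CPM in Input (-1.996 ± 0.44 on the log2 scale, edgeR adjusted p = 0.0127). None of these 3 overlapped between groups. Of the 27 tested, 17 did not pass, and 14 of the 30 genes in the table overlapped between IP and Input. In 16 of the 30 every IP library was below every Input library and in 0 above. The shares of all genes tested were 25.0% and 19.9%.

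Several genes counted as endothelial in this wider list were at or above Input in IP. Those named here were chosen after their values were seen. Car4, a carbonic anhydrase, stood in IP at 139% of Input (edgeR adjusted p = 0.398), Spock2, a matrix proteoglycan, at 128% (edgeR adjusted p = 0.534), Lef1, a transcription factor of Wnt signalling, at 124% (edgeR adjusted p = 0.490), Slc7a5, an amino acid transporter, at 105% (edgeR adjusted p = 0.912), and Foxq1, a forkhead factor, at 102% (edgeR adjusted p = 0.987). None of the 5 passed, and each overlapped between groups. Summed Input reads were 89263 for Spock2, 10608 for Lef1, 3942 for Slc7a5 and 2043 for Car4, against 174 for Cldn5 and 32016 for Bsg. Foxq1 had only 54 reads in IP and 47 in Input, with none in Input replicate 3. Which cells the reads of these genes came from was not tested. Summed over the 30 genes 117% of Input was kept, with 128746 of the 161021 IP reads from Spock2, and the median gene kept 26.3%.

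Of 14 tested pericyte and smooth muscle genes in this wider set 7 fell, or 5 with the replicate block. Over all genes 15.6% were lower, or 19.2% with that block. The called genes with the most Input reads per library size were Cald1, caldesmon of the contractile apparatus, at -1.82 ± 0.31 on the log2 scale (edgeR adjusted p = 0.00485), Notch3, the Notch receptor of mural cells, at -2.90 ± 0.67 (edgeR adjusted p = 0.0152), and Mcam, an adhesion molecule of mural and endothelial cells, at -3.78 ± 0.66 (edgeR adjusted p = 0.00519). Chosen after their values were seen, Mylk, the myosin light chain kinase, stood in IP at 112% of Input (edgeR adjusted p = 0.648), Cnn1, calponin, at 93.6% (edgeR adjusted p = 0.968), and Pde5a, a cyclic GMP phosphodiesterase, at 66.9% (edgeR adjusted p = 0.389), with overlap and no call. Summed over the 20 genes 50.5% was kept, against 7.28% for the 10 members, and the median gene kept 10.5%.

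Of 17 tested fibroblast genes 5 fell, or 9 with the replicate block, beside 15.6% and 19.2% lower over all genes. They included Bgn, the proteoglycan biglycan, at -4.06 ± 0.75 on the log2 scale (edgeR adjusted p = 0.00636), Efemp1, a fibulin of the extracellular matrix, at -3.42 ± 0.98 (edgeR adjusted p = 0.0339), and Foxc1, a transcription factor of meningeal fibroblasts, at -3.68 ± 0.99 (edgeR adjusted p = 0.0265). Among the rest, Twist1, a transcription factor of mesenchyme, stood at 185% of Input (edgeR adjusted p = 0.776) with overlap, and Foxd1, a forkhead factor, at 92.2%, too low to be tested; both were chosen after their values were seen. Summed over the 20 genes 16.6% was kept.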

How the data were processed

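Counts were deposited as 1 table of whole-number reads per gene for each of 6 libraries, and the authors aligned reads to mm10 with STAR 2.0.0e and counted them with HTSeq, per the submitters' processing notes. The annotation, HTSeq mode and strand setting: not given in the sources used here. Groups and replicate numbers come from the titles. HTSeq summary rows and a row named unknown stayed out of library sizes and tests: no feature took 7.65 to 7.85% of records in IP and 14.0 to 17.7% in Input, ambiguous 1.53 to 1.92% and 7.37 to 13.2%, and alignments at more than 1 place 38.5 to 45.0% and 23.6 to 27.2%. No 2 libraries of a group agreed within sampling noise.

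The filter on low counts was filterByExpr with the groups, library sizes were TMM-scaled, and the test was that of edgeR 4.0.16 (R 4.3.3), a two-sided quasi-likelihood test on group, Benjamini-Hochberg adjustment over 16496 genes, threshold 0.05. The fit was also run on simulated counts. These were drawn independently for each library, without an effect of the replicate number, so that run cannot speak to pairing. CPM are TMM-scaled. SE is the size of the log2 fold change divided by the square root of the F statistic. Percent kept is summed IP over summed Input reads per TMM-scaled size, with a 95% exact (Clopper-Pearson) interval. A gene without an IP read was set to a floor of 3 reads over the group. Lengths and overlaps come from GENCODE M21 on GRCm38, the assembly of mm10, and promoters from RefSeq (GRCm38.p6). The members and lists were chosen with earlier results of these data known. The rule for named genes was all 35 members, and from the wider lists the called genes with the most Input CPM in each class, up to 3. Subgroups by role were drawn up after values were seen.

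Same-numbered libraries deviated together (correlations of 0.271, 0.113 and 0.141 across genes for replicates 1, 2 and 3). The numbers, taken from the titles, were therefore treated as pairs in the replicate block, the same-numbered percents and the paired permutation test. The fit on group alone, which ignores the pairing, stayed the main one. Replicate numbers coincide with lanes 3, 8 and 4 and cannot be told apart from them. Alternatives used DESeq2 1.42.0 and limma 3.58.1, and permutation tests scipy 1.17.1.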

Additional observations from a re-analysis of the deposited data

How the results depend on the processing

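Of the 21 genes called lower, 15 kept their call in every edgeR fit without 1 library, and 5 (Rgs5, Vtn, Heyl, Igf2 and Dcn) in every alternative run. The count was 21 with RLE factors, library totals, upper-quartile factors and limma-voom, 26 with DESeq2, 20 without a filter and 20 with the replicate block. It was 14 at a minimum count of 50, where 20 of the 35 could be tested and 7 endothelial genes were lower. Lower calls over all genes were 2566 of 16496 in the main fit. They were 3263 with DESeq2, 3163 with the block, 2570 with RLE factors, 2629 with library totals, 2754 with upper-quartile factors and 2714 with limma-voom. Without a filter they were 2739 of 22292, and at a minimum count of 50, 2250 of 14011. With the replicate block 1 member, Bsg, was higher in place of 0. Among fits without 1 library or both libraries of 1 replicate number, the lower counts ran from 5 to 23 over all members, 0 to 12 endothelial, 3 to 8 pericyte and smooth muscle, 2 to 3 fibroblast and 4 to 24 among the wider vascular genes. The lowest of each came without both libraries of replicate 2, alone or tied, where 10 endothelial genes were lower at an unadjusted edgeR p under 0.05 against 0 after adjustment. Over all genes the lower calls were then 651 of 16632 in place of 2566 of 16496. Without both libraries of replicate 3, where 23 members fell, they were 2436 of 17039. Without IP replicate 2 or Input replicate 2 alone, 7 endothelial genes were lower, and 14 or 13 of the wider genes. Of the 35 members, 1 changed sign: Egfl7, to a log2 fold change of 0.13 without IP replicate 2, 0.50 without Input replicate 3 and, without both libraries of a replicate number, -1.28 (1), 0.01 (2) and 0.63 (3).

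The percent kept ran from 99.3 to 125% for endothelial genes, 6.50 to 8.87% for pericyte and smooth muscle genes and 3.27 to 7.18% for fibroblast genes without 1 library, the highest fibroblast value without Input replicate 3. Endothelial genes kept 31.7% without Bsg, 22.6% without Bsg and Slc2a1 (chosen after seeing the data) and a median of 17.3% over members. Pericyte and smooth muscle genes kept 9.45% without Heyl and a median of 4.69%, and fibroblast genes 13.6% without Igf2 and a median of 6.38%. The median of the 3 same-numbered percents, which respects the pairing, was 113, 7.91 and 5.58% for the 3 classes. Each library was also left out in turn, an alternative chosen after seeing the data. The percent kept, or the fold at 3 reads, of 21 of the 35 members then moved by over 1.5 times at least once.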
